A study of Mus musculus with 16 samples.

Results

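Neutrophils lacking the oxygen sensor PHD2 were compared with control neutrophils across all genes, as the 4 RNA sequencing libraries with the label P2KO against the 4 with the label P2WT, which make up 8 of the 16 libraries of the series. The P2KO animals carried Vav:cre together with the floxed allele PHD2f/f, a conditional knockout (cKO) of the Egln1 gene. Vav:cre is a transgene that drives the Cre recombinase in blood-forming cells and their progeny, so that deletion is not limited to neutrophils. The P2WT libraries are labelled wild type, with nothing on whether these mice carried the floxed allele or Vav:cre. All animals were C57BL/6 mice aged 8 to 12 weeks, the tissue was bones, and the cells are described as sorted by flow cytometry. The remaining 8 libraries belong to a line labelled Vav:cre-PHD2/HIF2ff/ff, in which HIF2 was targeted along with PHD2 (P2H2KO, 4 libraries), and to its wild-type controls (P2H2WT, 4 libraries); they serve here only to test whether an effect differed between the lines. Nothing in the labels says whether libraries came from separate animals, so p-values measure the spread between these libraries.

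PHD2 is an enzyme that uses oxygen to hydroxylate the α subunits of the hypoxia-inducible factors HIF1 and HIF2, and the von Hippel-Lindau protein (Vhl) then marks the hydroxylated subunits for degradation. Without the hydroxylation the α subunits accumulate, pair with Arnt and bind DNA at short motifs with the core ACGTG or GCGTG. Genes of glucose uptake and glycolysis, of mitochondrial turnover and of oxygen sensing itself are textbook targets. Neutrophils hold few mitochondria and make most of their ATP by glycolysis, and HIF1 is known for its role in that supply.

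Total counts per library ranged from 24169451 to 28136068, and 19848 to 20439 genes had at least 1 count. The suffix m or f of each title matched Xist and Ddx3y in all 8 libraries, with 3 m and 1 f in P2KO and 2 of each in P2WT. Neutrophil genes were abundant, with S100a8, a calcium-binding protein of the neutrophil cytosol, at 5374 to 12650 CPM (counts scaled to a common library total, as in the usual CPM unit) and the granule gene Ltf at 5758 to 14290 CPM. Markers of other marrow cells were present as well. The 17 erythroid markers tested summed to 30366 to 53256 CPM, the 11 monocyte markers to 2711 to 5634 CPM and the 15 marrow macrophage markers to 1290 to 1960 CPM, and none of these lists had a marker at 0 in all 8 libraries. The first principal component of log2 CPM (28.9% of the variance) had P2KO replicate 6 at 1 end and P2KO replicate 9 at the other, and the next (22.8%) separated the suffixes, so neither separated the genotypes. Replicate 6 had the highest sums of specific granule genes and of mature neutrophil genes and the lowest erythroid sum. Replicate 9 had the highest megakaryocyte, eosinophil and B lineage sums and the lowest monocyte sum.

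**Figure D1:**
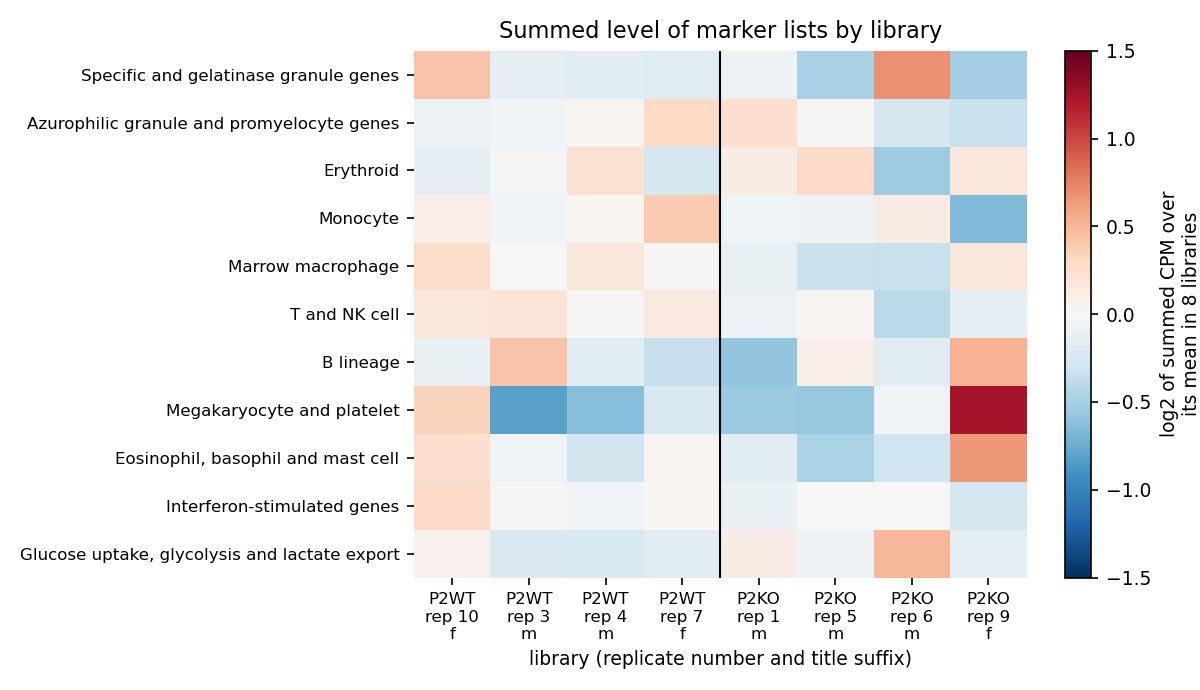
Summed level of marker lists and of the glycolysis list in the 8 libraries (columns, with replicate number and title suffix), as the log2 of the summed CPM over its mean in the 8 libraries. P2KO replicate 6 is red in the rows of specific granule genes and glycolysis and blue in the erythroid row, and P2KO replicate 9 is dark red in the megakaryocyte row.

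The threshold was passed by 6 genes, all of them higher in P2KO. They were Gm6472, a processed pseudogene, Ankrd37, an ankyrin-repeat protein known as a HIF target, and the enzymes Aldoc, Pfkl, Tpi1 and Grhpr. They are 0.0437% of the 13734 genes tested (edgeR quasi-likelihood test, Benjamini-Hochberg adjusted p under 0.05), and 0 genes were called lower, which is 0% of those tested. Before adjustment 480 genes (3.49%) had p under 0.05, 205 higher (1.49%) and 275 lower (2%). Without P2KO replicate 6 this number was 1702, and without P2KO replicate 9 it was 525. The median log2 fold change of all genes tested was 0.02, with an SD of 0.22, and 57.8% of the estimates were positive and 42.2% negative. The groups did not overlap in 2.18% of genes.

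The RefSeq windows upstream of Ankrd37, Bnip3, P4ha1 and Grhpr are shown because they range from several copies of the HIF core motif to none. They were picked for that range and do not stand for all genes higher in P2KO. Each of these genes was higher in P2KO, Bnip3 and P4ha1 without passing the threshold in edgeR. Each line gives the 250 bases before the annotated start, 5′ to 3′ on the strand of the gene, in build GRCm38.p6, with the motifs ACGTG and GCGTG, searched on both strands, in capitals; matches may overlap, and CACGTG counts as 2 matches. The windows are chr8:45999851-46000100 on the minus strand for Ankrd37, chr7:138909507-138909756 on the minus strand for Bnip3, chr10:59323046-59323295 on the plus strand for P4ha1, and chr4:44981144-44981393 on the plus strand for Grhpr.
Ankrd37: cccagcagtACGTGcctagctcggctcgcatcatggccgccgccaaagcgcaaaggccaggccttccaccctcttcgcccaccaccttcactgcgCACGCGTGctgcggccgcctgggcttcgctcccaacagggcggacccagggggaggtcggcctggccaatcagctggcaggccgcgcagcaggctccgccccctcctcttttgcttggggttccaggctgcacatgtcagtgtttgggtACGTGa
Bnip3: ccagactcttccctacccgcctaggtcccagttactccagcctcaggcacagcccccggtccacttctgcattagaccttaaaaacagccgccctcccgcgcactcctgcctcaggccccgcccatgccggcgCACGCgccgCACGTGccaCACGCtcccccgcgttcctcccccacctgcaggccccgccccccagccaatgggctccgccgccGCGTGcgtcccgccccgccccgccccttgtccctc
P4ha1: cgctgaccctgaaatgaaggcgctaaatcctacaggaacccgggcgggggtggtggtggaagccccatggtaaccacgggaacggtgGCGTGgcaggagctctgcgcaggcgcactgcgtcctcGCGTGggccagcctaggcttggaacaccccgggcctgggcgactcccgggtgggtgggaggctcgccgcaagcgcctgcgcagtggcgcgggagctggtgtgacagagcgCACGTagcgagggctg
Grhpr: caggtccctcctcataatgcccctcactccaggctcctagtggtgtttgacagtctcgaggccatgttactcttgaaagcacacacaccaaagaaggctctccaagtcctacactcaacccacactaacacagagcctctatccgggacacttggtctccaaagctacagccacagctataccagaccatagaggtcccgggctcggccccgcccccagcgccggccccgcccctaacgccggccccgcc
These windows hold 4, 5, 3 and 0 matches in that order. Of all 32851 RefSeq windows of this length, 16.6% hold ACGTG, 28.2% hold GCGTG, 38.6% hold either and 16.7% hold at least 2 matches. The 2 windows of Aldoc and the window of Pfkl hold 1 match each and that of Tpi1 holds 0, and these are not printed. Among genes that DESeq2 alone called higher, the window of Egln3 holds 1 match, the 2 windows of Pdk1 hold 1 and 0, and that of Mif holds 0. In the GENCODE annotation the Bnip3 window reaches into the start of the gene, and the Ankrd37 window lies inside the span of the gene. A match describes the letters of the window and does not show binding.

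Among the oxygen-sensing genes, Egln1, which encodes PHD2, was at 48.4, 50.04, 60.5 and 44.3 CPM in P2KO replicates 1, 5, 6 and 9, and at 49.5, 46.8, 51.9 and 49.7 CPM in P2WT replicates 3, 4, 7 and 10 (this order of replicates holds throughout). The groups overlapped, and a two-sided exact permutation test on log2(CPM + 1) gave p = 0.8286, where the smallest p that 4 against 4 libraries allow is 0.0286. The counts are summed over the whole gene, and a deletion of a floxed part need not lower them, so Egln1 does not check the genotype. Hif1a, the α subunit of HIF1, was at 74.04, 74.7, 93.8 and 74.8 CPM in P2KO and 91.9, 83.2, 121.3 and 107.4 CPM in P2WT. In P2KO 3 of 4 libraries lay below every P2WT library and replicate 6 lay among them, with an exact permutation p of 0.0857 (adjusted over 3 genes 0.257). In edgeR the log2 fold change of Hif1a was -0.35. Its unadjusted p was under 0.05, as in 2% of all genes in that direction, and it did not pass after adjustment. Epas1, the α subunit of HIF2, was at 7.73, 10.6, 7.004 and 24.98 CPM and 9.05, 8.87, 11.3 and 11.6 CPM, and P2KO replicate 9 alone was high (exact permutation p 0.914).

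Egln3 encodes PHD3, a hydroxylase related to PHD2 and itself a HIF target. It was at 18.8, 15.9, 22.9 and 13.7 CPM in P2KO and 10.3, 9.90, 10.3 and 11.8 CPM in P2WT. All P2KO libraries were above all P2WT libraries, as in 1.03% of all genes tested in that direction. The log2 fold change was 0.75 (SE 0.15) and did not pass in edgeR (adjusted p 0.537), while DESeq2 gave an adjusted p of 0.00878. The 6 other sensor and subunit genes tested (Arnt, Egln1, Egln2, Hif1an, Hif3a and Vhl) had log2 fold changes between -0.02 and 0.33, with unadjusted p of 0.21 or more, and Arnt2 was below the count filter.

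Ankrd37 (ENSMUSG00000050914, chr8:45996902-46005707) was the annotated protein-coding gene with the largest change past the threshold. It was at 3.83, 4.85, 4.14 and 5.07 CPM in P2KO and 0.799, 0.536, 0.599 and 0.739 CPM in P2WT, with a wide gap between the groups. The log2 fold change was 2.73 (SE 0.18, adjusted p 0.000665 in edgeR). Its exons overlap those of Lrp2bp and Ufsp2, so reads from these genes may be shared. Gm6472 (chrX:152909505-152910155), a transcribed processed pseudogene, was at 13.9, 13.6, 10.9 and 12.4 CPM in P2KO and 1.10, 1.03, 1.08 and 1.15 CPM in P2WT, which is a log2 fold change of 3.54 (SE 0.12, adjusted p 3.33e-06 in edgeR). Every P2KO library lay far above every P2WT library. Its transcript of 651 bases is 99.4% identical, without gaps, to one of the ribosomal protein gene Rps7. Rps7 itself was at 249.3, 232.3, 188.5 and 235.6 CPM and 246.7, 251.8, 253.3 and 239.6 CPM, and the summed level of the pair was 239.1 ± 27.6 CPM in P2KO and 248.9 ± 6.14 CPM in P2WT (SD, n = 4 each). How reads shared between the pair were assigned is not given in the sources used here, so the level of Gm6472 is uncertain.

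**Figure D2:**
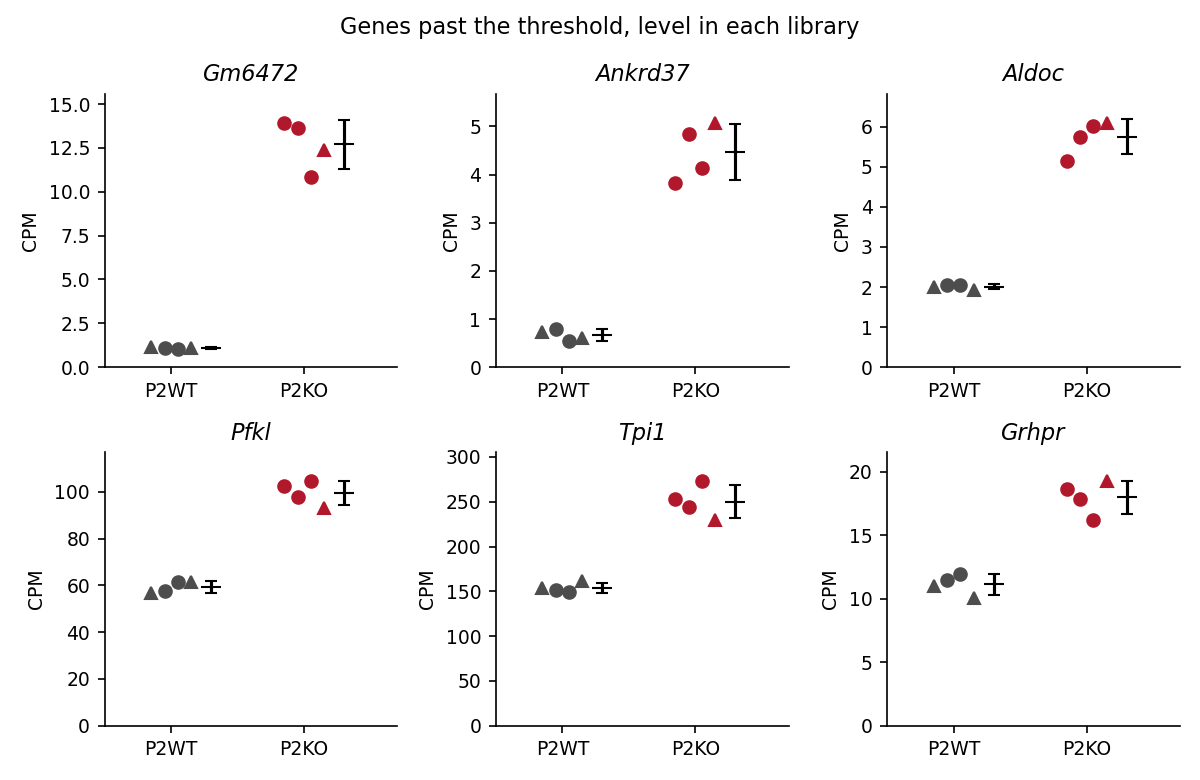
Level in CPM of the 6 genes past the threshold in each of the 8 libraries (circles, suffix m; triangles, suffix f), with the mean and SD of each group in black. In all 6 panels every P2KO library (red) lies above every P2WT library (grey).

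Glycolysis turns glucose into pyruvate, and 3 of the 22 tested genes from glucose uptake to lactate export rose, against 0.0437% of all genes. They were Pfkl, the liver type of phosphofructokinase at the committed step, Aldoc, an aldolase best known from brain, and Tpi1, triosephosphate isomerase, which converts the products of aldolase into each other. Pfkl (chr10:77986947-78010083) was at 102.5, 97.9, 104.4 and 92.99 CPM in P2KO and 57.4, 61.2, 61.3 and 56.9 CPM in P2WT. The groups were far apart, at a log2 fold change of 0.75 (SE 0.061, adjusted p 0.00198 in edgeR). Aldoc (chr11:78322968-78327781) was at 5.14, 5.73, 6.02 and 6.10 CPM in P2KO and 2.05, 2.06, 1.92 and 1.996 CPM in P2WT. The P2WT libraries were within a narrow range and all below P2KO, at a log2 fold change of 1.52 (SE 0.11, adjusted p 0.00104 in edgeR). Tpi1 (chr6:124810586-124814296; its exons overlap Spsb2) was at 253.4, 244.4, 272.8 and 229.5 CPM in P2KO and 151.1, 149.2, 161.4 and 153.6 CPM in P2WT. P2KO replicate 9 was the lowest P2KO library and still above P2WT, at a log2 fold change of 0.70 (SE 0.072, adjusted p 0.0105 in edgeR).

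Among the 19 other tested members the log2 fold changes ranged from -0.16 to 0.69, and none passed. Slc2a1, the glucose transporter GLUT1, was at 27.6, 32.7, 49.03 and 22.8 CPM in P2KO and 19.1, 16.2, 22.4 and 23.9 CPM in P2WT. Its groups overlapped, with P2KO replicate 6 well above the rest (log2 fold change 0.69, SE 0.23, unadjusted p 0.0137). Eno1, an enolase, had 0.50 (SE 0.16), Aldoa, the main aldolase here, 0.44 (SE 0.16), and Ldha, the lactate dehydrogenase subunit that favours lactate, 0.35 (SE 0.13) on the log2 fold change scale, with unadjusted p between 0.0105 and 0.0252. With the 3 called genes these make 7 members at an unadjusted p under 0.05, all with positive estimates, against 1.49% of all genes. Without P2KO replicate 6 there were 10 such members, and 10 without replicate 9. Over all genes, in either direction, 1702 and 525 were under 0.05 in these fits, beside 480 with all 8 libraries. The estimate was positive for 20 of 22 members and their median was 0.20, beside 0.02 for all genes.

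P2KO replicate 6 had the highest level of all 8 libraries for Slc2a3 (254.8, 185.7, 513.5 and 172.1 CPM in P2KO, 234.3, 211.7, 208.6 and 340.8 CPM in P2WT), a glucose transporter, and for Hk2, a hexokinase, at 178.3 CPM against at most 120.6 CPM elsewhere. Without it 14 of 22 estimates were positive, and Aldoc, Pfkl and Tpi1 were still called. That library also had the highest granule and mature neutrophil sums, and the part of that content in the glycolysis values was not tested. Within the suffix m libraries the median of the list was 0.47 with 20 of 22 positive, and within the suffix f libraries (1 P2KO against 2 P2WT) it was -0.07 with 10 of 22 positive.

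**Figure D3:**
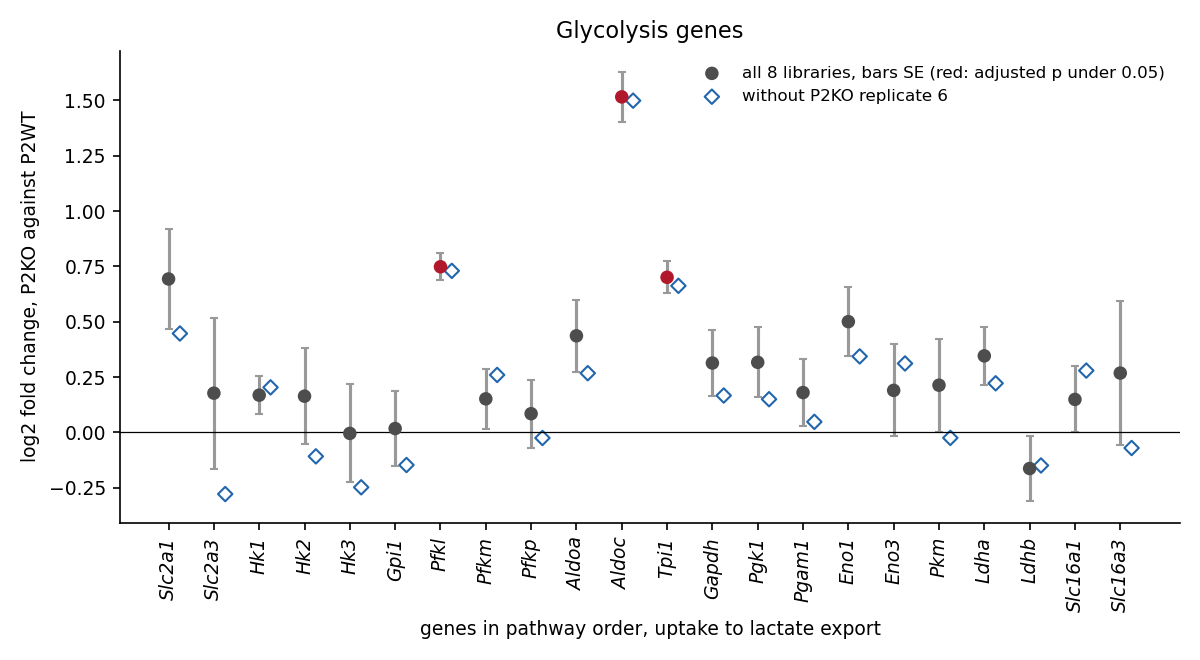
Log2 fold change of P2KO against P2WT for the 22 tested genes from glucose uptake to lactate export, in pathway order (filled circles with SE bars, red where the adjusted p is under 0.05; open diamonds, without P2KO replicate 6). Aldoc, Pfkl and Tpi1 stay in place without that library, while Slc2a3, Hk2, Gpi1, Pfkp, Pkm and Slc16a3 move to the other side of 0.

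Isozymes are set side by side as CPM per kilobase of exon, with all annotated exons of a gene merged. The merged lengths were 6675 bases for Pfkl, 3340 for Pfkm and 13401 for Pfkp. Shares and ranks within a family depend on these lengths, and the length of the transcripts present was not measured. On this scale Pfkl made up 30.6% of the phosphofructokinase level in P2WT and 40.2% in P2KO. The muscle type Pfkm made up 53.2% and 46.3%, while the platelet type Pfkp went from 16.2% to 13.5%. Aldoc stayed a minor aldolase, at 0.295% of aldolase transcripts in P2WT and 0.623% in P2KO, beside Aldoa at 99.6% and 99.3%. These shares are of group means and were not tested.

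Outside glycolysis, Grhpr, P4ha1, Bnip3 and Pdk1 were each the member of their own list with the smallest p. The lists were chosen with earlier results of these data known, so these ranks add no support. Grhpr (chr4:44981395-44990734), an enzyme that reduces glyoxylate and hydroxypyruvate, was at 18.6, 17.8, 16.2 and 19.2 CPM in P2KO and 11.5, 11.96, 10.1 and 10.98 CPM in P2WT. The groups did not overlap, and Grhpr passed the threshold (log2 fold change 0.69, SE 0.085, adjusted p 0.0405 in edgeR). It was the only one of 5 tested glyoxylate and methylglyoxal genes to pass, beside 0.0437% of all genes. The median of that list was 0.08. P4ha1, a subunit of the enzyme that hydroxylates collagen, was at 53.7, 55.7, 55.4 and 44.96 CPM and 33.3, 33.8, 33.8 and 27.7 CPM and missed the threshold (log2 fold change 0.70, SE 0.094, adjusted p 0.0684 in edgeR). Bnip3, which tags mitochondria for removal by autophagy, was at 12.4, 11.7, 16.6 and 12.7 CPM in P2KO and 7.34, 5.94, 6.19 and 7.84 CPM in P2WT. Again no library of P2KO fell among P2WT, at a log2 fold change of 0.96 (SE 0.14, adjusted p 0.102 in edgeR), and its exons overlap Gm45507.

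Pdk1, a kinase that shuts pyruvate out of the mitochondrial cycle, was at 54.3, 47.9, 42.9 and 53.8 CPM in P2KO and 30.05, 37.2, 33.9 and 33.1 CPM in P2WT (log2 fold change 0.57, SE 0.096, adjusted p 0.210 in edgeR). Mif, a cytokine, was at 39.6, 42.9, 37.2 and 40.2 CPM in P2KO and 28.2, 25.5, 30.5 and 24.4 CPM in P2WT (log2 fold change 0.56, SE 0.084, adjusted p 0.122 in edgeR). Neither gene had overlapping groups. P4ha1, Bnip3, Pdk1, Mif and Egln3, with Iqcg, a protein of cilia, and Prg4, lubricin, were the 7 genes that DESeq2 called higher beside the 6 above. DESeq2 called 23 genes (0.168% of 13728), 13 higher (0.0947%) and 10 lower (0.0728%). Prg4 was at 4.43, 2.71, 5.12 and 7.51 CPM in P2KO and 0.0761, 0.907, 0.519 and 0.111 CPM in P2WT, low in every P2WT library (log2 fold change 3.63, SE 0.59, adjusted p 0.198 in edgeR).

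Of 22 tested genes on the list of other HIF targets, 1 was called (Ankrd37), beside 0.0437% of all genes. Positive estimates were found in 17, beside 57.8% of all genes, and the median was 0.12, beside 0.02. An unadjusted p under 0.05 was found in 5, all positive, beside 1.49% of all genes: Ankrd37, Mif and, named after their values were seen, Ak4 (log2 fold change 0.70), an adenylate kinase, Bhlhe40 (0.28), a transcription repressor, and Higd1a (0.25), a mitochondrial protein. Without P2KO replicate 6 the positive estimates were 12 of 22, and 8 positive and 1 negative had an unadjusted p under 0.05. Over all genes, in either direction, 1702 were under 0.05 in that fit, beside 480 with all 8 libraries. Of 13 histone demethylases 2, Kdm3a at 0.22 and Kdm4b at 0.15, and Pgm1, a phosphoglucomutase, at 0.26 on the log2 fold change scale, had an unadjusted p under 0.05 and groups that did not overlap, and none passed. Of all genes 1.49% had such a p with a positive estimate, and 1.03% had every P2KO library above every P2WT library.

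The mitochondrial pathways had no call. The 17 tested genes of the tricarboxylic acid cycle had a median log2 fold change of -0.02 and the 35 nuclear genes of the respiratory chain one of 0.00 when rounded, with 0 at an unadjusted p under 0.05 in either list and estimates between -0.14 and 0.10. The 7 tested pentose phosphate genes lay between -0.07 and 0.07, and their median of 0.00 when rounded was -0.12 without P2KO replicate 6.

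The movement of neutrophils is the subject of the series' title, so the motility lists were examined next. They held 14 integrin genes, 11 chemoattractant receptors, 9 selectin genes, 22 genes of actin nucleation and 10 of the nuclear lamina. None of these genes was called, and the list medians ranged from -0.04 to 0.05, beside 0.02 for all genes. The unadjusted p was under 0.05 for 1, Podxl, a sialomucin, at 0.96 with P2KO replicate 9 alone high. These values depended on P2KO replicate 6. Without it all 11 chemoattractant receptors had negative estimates with a median of -0.44, and the medians of actin nucleation genes and integrins were -0.20 and -0.16. At an unadjusted p under 0.05 there were then 9 actin nucleation, 4 selectin, 3 integrin and 2 chemoattractant receptor genes with negative estimates, and 1 selectin and 1 lamina gene with positive ones. Over all genes, in either direction, 1702 were under 0.05 in that fit, beside 480 with all 8 libraries. Whether the counts in the motility lists differ from that background was not tested. Within suffix m the median of the chemoattractant receptors was 0.33 and within suffix f it was -0.93.

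Granule genes, mature neutrophil genes and the NADPH oxidase, which makes the oxidative burst, had no call and medians between -0.09 and -0.01. The azurophilic granule median went from -0.09 to -0.03 without P2KO replicate 6, and was -0.19 without P2KO replicate 1 and 0.02 without P2KO replicate 9. The 3 other medians moved further when P2KO replicate 6 was left out. Without P2KO replicate 6 the median of the mature neutrophil genes was -0.49 with 15 of 16 negative, that of the specific granule genes -0.33 with 14 of 14 negative and that of the NADPH oxidase -0.26. Within suffix m the 3 medians were 0.29, 0.27 and 0.18, and within suffix f they were -1.04, -0.71 and -0.57. Cebpa, a transcription factor of early granulocytes, was at -0.38 on the log2 fold change scale (SE 0.095, unadjusted p 0.00293 in edgeR), and did not pass after adjustment.

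**Figure D4:**
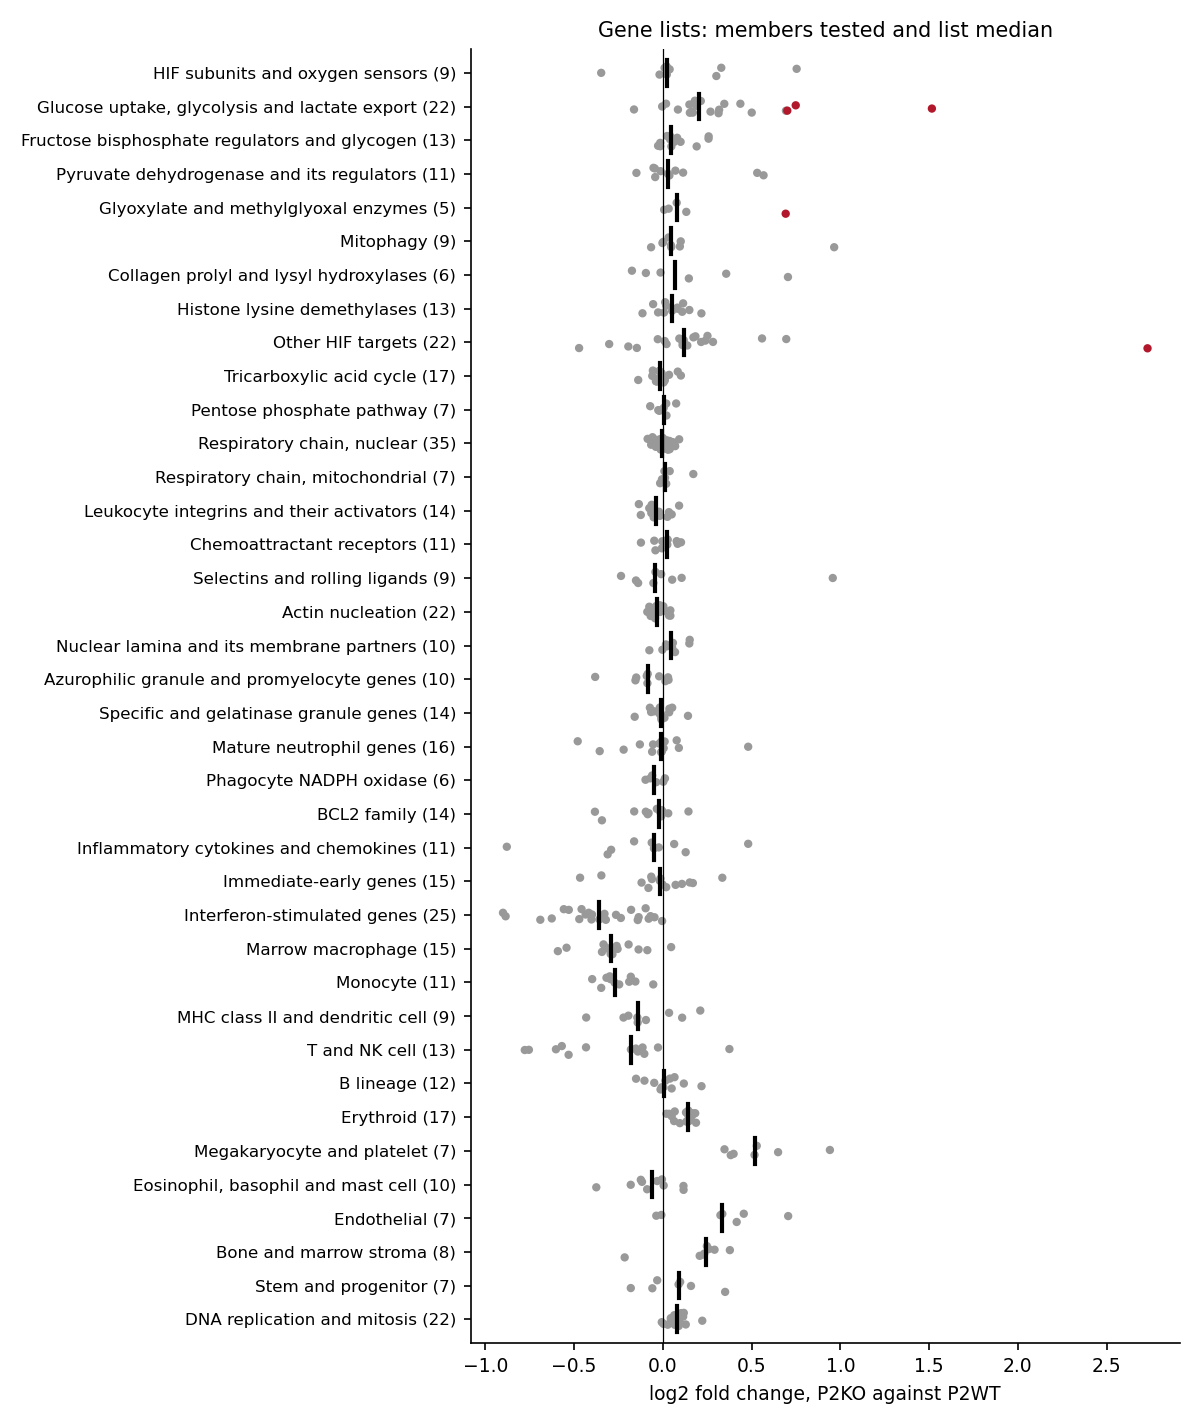
Log2 fold change of P2KO against P2WT of every tested member of 38 gene lists (points, red where the adjusted p is under 0.05; number tested in parentheses), with the list median as a black bar. The called gene Gm6472 is in no list, and the other called genes lie in the lists of glycolysis, glyoxylate enzymes and other HIF targets. The medians of the motility lists are near 0 with all 8 libraries included.

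No gene was called lower by edgeR. Genes of cytotoxic lymphocytes were among those with the smallest p in that direction, and 4 of them were called by DESeq2. Klrb1c, the natural killer receptor NK1.1, was at 3.30, 3.73, 3.28 and 3.19 CPM in P2KO and 5.82, 5.40, 5.99 and 5.58 CPM in P2WT. The groups did not overlap, as in 1.15% of all genes in that direction (log2 fold change -0.75, SE 0.10, adjusted p 0.0688 in edgeR, DESeq2 adjusted p 4.63e-05), and its exons overlap Gm44511. Gzma, a granule protease of killer cells, was at 5.89, 6.47, 6.27 and 4.52 CPM and 10.8, 8.50, 10.1 and 10.3 CPM (log2 fold change -0.78, SE 0.13, adjusted p 0.210 in edgeR). Il2rb, an interleukin receptor chain, was at 16.3, 19.5, 14.8 and 17.6 CPM and 27.7, 22.2, 26.2 and 25.3 CPM (log2 fold change -0.57, SE 0.10, adjusted p 0.296 in edgeR). DESeq2 called these genes and Prf1, the pore-forming perforin, at 2.55, 2.04, 1.597 and 1.77 CPM and 4.22, 3.26, 3.75 and 3.66 CPM. Of the 13 T and NK cell markers 12 had negative estimates, beside 42.2% of all genes, and 5 an unadjusted p under 0.05, beside 2%. Without P2KO replicate 6 the negative estimates were 9 of 13 and the median went from -0.18 to -0.08, with 5 still under 0.05. Over all genes, in either direction, 1702 were under 0.05 in that fit, beside 480 with all 8 libraries. The summed level of the T and NK cell markers was 106.9 to 145.5 CPM in P2KO and 144.1 to 161.9 CPM in P2WT. None of the markers was at 0 in all libraries. In bulk libraries fewer cells of a type and less RNA per cell cannot be told apart.

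Markers of macrophages and monocytes also had mostly negative estimates without a call in edgeR. Siglec1, a sialic acid receptor of marrow macrophages, was at 50.3, 40.5, 43.05 and 53.3 CPM in P2KO and 61.8, 69.98, 66.3 and 83.9 CPM in P2WT and was called by DESeq2 (log2 fold change -0.59, SE 0.12, DESeq2 adjusted p 0.00413, adjusted p 0.537 in edgeR). Its list had 14 of 15 negative estimates and a median of -0.29, and that of monocytes 11 of 11 and -0.27. Without P2KO replicate 6 the macrophage median was -0.18 and the monocyte median -0.31, and without replicate 9 they were -0.42 and -0.16. Summed macrophage markers were at 1290 to 1824 CPM in P2KO and 1634 to 1960 CPM in P2WT, and summed monocyte markers at 2711 to 4682 CPM and 4186 to 5634 CPM, so both overlapped between the groups. The monocyte median was -0.00 within suffix m and -0.86 within suffix f, and the macrophage median -0.42 and -0.01. The remaining genes that DESeq2 called lower were Slamf8, Cd209f, Phf11d, Apobec1 and the immunoglobulin segment Igkv3-2, with log2 fold changes between -1.82 and -0.28.

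Interferon-stimulated genes, which cells switch on after an antiviral signal, had negative estimates in 25 of 25 members, with 0 called and 8 at an unadjusted p under 0.05, beside 2% of all genes. The latter were 14 without P2KO replicate 6 and 5 without replicate 9. Over all genes, in either direction, 1702 and 525 were under 0.05 in these fits, beside 480 with all 8 libraries. Oasl1, a member of the oligoadenylate synthetase family, was at 10.7, 9.85, 11.9 and 11.4 CPM in P2KO and 14.7, 12.4, 15.7 and 21.8 CPM in P2WT and was the member without overlap (log2 fold change -0.56, SE 0.16, unadjusted p 0.00736). P2WT replicate 10 had the highest level of Oasl1 and the highest sum of the list, at 1919 CPM. The list median was -0.36, and -0.17 with 21 of 25 negative without that library. It was -0.06 within suffix m and -0.77 within suffix f, where P2KO has 1 library. The sum was 1320 to 1570 CPM in P2KO and 1523 to 1919 CPM in P2WT. Whether cell content accounts for these values was not tested.

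Lists of other cells with positive medians, and the list of DNA replication and mitosis, had no call either. Their directions depended on which libraries were included. Of all genes 57.8% had positive estimates. All 7 megakaryocyte and platelet genes had positive estimates with a median of 0.52, and 1 of 7 without P2KO replicate 9. Endothelial genes had 5 of 7 positive with a median of 0.33, which was -0.15 without P2KO replicate 9. Bone and stroma genes had 7 of 8 positive with a median of 0.24, which was 0.03 without that library. All 17 erythroid genes had positive estimates with a median of 0.14 (0.28 without P2KO replicate 6), and 1 of 17 within the suffix m libraries. Of 22 genes of DNA replication and mitosis 21 had positive estimates with a median of 0.08, and 2 of 22 within suffix m.

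**Figure D5:**
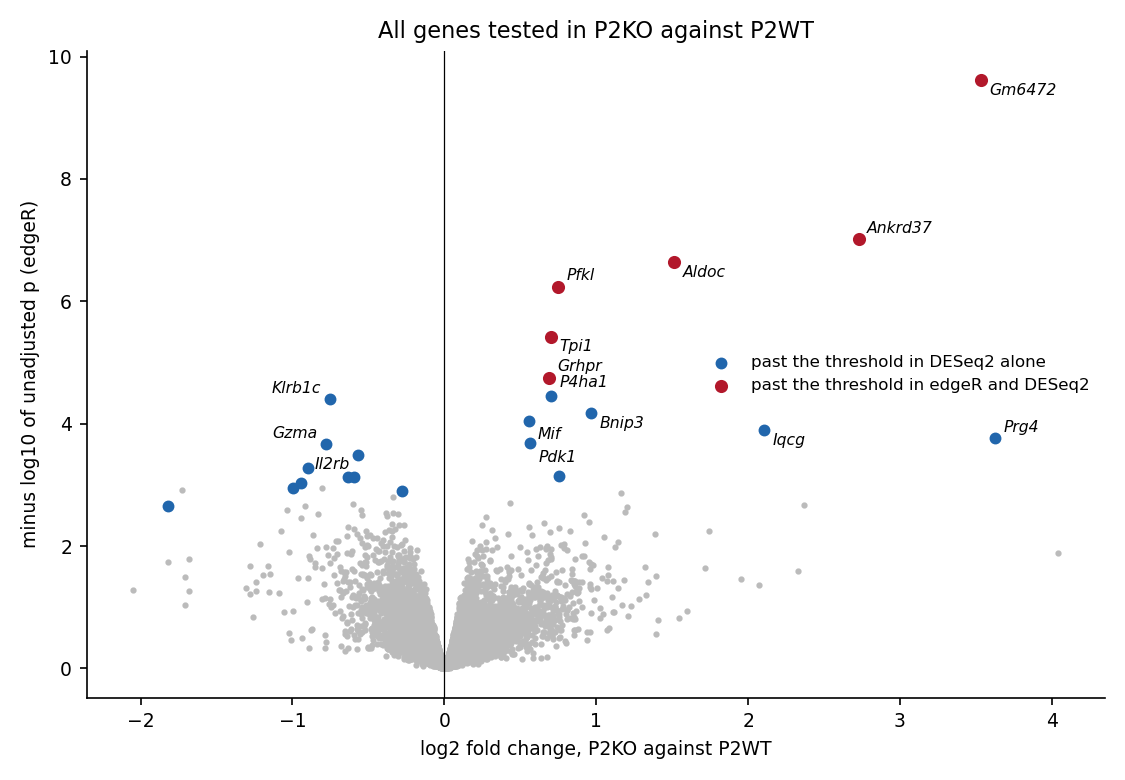
Log2 fold change of P2KO against P2WT (horizontal axis) and minus log10 of the unadjusted edgeR p (vertical axis) for the 13734 genes tested, with the 6 genes called by edgeR and DESeq2 in red and those called by DESeq2 alone in blue. The 6 genes called by edgeR lie to the right of 0, and the 10 genes called lower lie at less extreme p.

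The calls were next examined within the title suffixes. Within suffix m (3 against 2 libraries) the 6 genes had log2 fold changes of 3.57 (Gm6472), 2.65 (Ankrd37), 1.44 (Aldoc), 0.76 (Pfkl), 0.76 (Tpi1) and 0.57 (Grhpr). Within suffix f (1 against 2, with 1 residual degree of freedom) the values were 3.44, 2.88, 1.60, 0.62, 0.51 and 0.84 in the same order, so each gene was higher in P2KO in both. With the suffix as a covariate 4 genes were called, without Tpi1 and Grhpr. Leaving out each library in turn kept Gm6472, Ankrd37, Aldoc and Pfkl in 8 of 8 fits, Tpi1 in 4 and Grhpr in 1, so the calls of Tpi1 and Grhpr depend on which library is left out. With all 8 libraries Grhpr also lost its call with upper-quartile factors (adjusted p 0.0933 in edgeR) and with a filter of 10 counts in every library (adjusted p 0.0510 in edgeR).

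The last question was whether an effect in this line differed from that in the line that also lacks HIF2. In a fit of all 16 libraries 0 of 14080 genes (0%) had an adjusted p under 0.05 for the difference of the effects (edgeR), and 212 (1.51%) had an unadjusted p under 0.05. The lines have separate controls. In the other line the log2 fold changes were 0.92 for Pfkl, 0.83 for Tpi1, 0.78 for Grhpr and 0.96 for P4ha1. Those of the called genes Gm6472, Ankrd37 and Aldoc are not given here. Of the tested glycolysis genes, Aldoc among them, 0 had an unadjusted p under 0.05 for the difference, and of the other HIF targets 1 did. The difference was -0.18 (SE 0.093) for Pfkl and -0.10 (SE 0.15) for Grhpr. For the lymphocyte genes the other line gave -0.08 for Klrb1c and -0.28 for Gzma, and the differences of -0.68 (SE 0.28, unadjusted p 0.0261) and -0.51 (SE 0.22, unadjusted p 0.0321) did not pass over all genes (adjusted p 0.9995 for both in edgeR). Slamf8 and Prg4 had the smallest p for the difference among the named genes, and their estimates had the opposite sign in the other line, at 0.25 and -3.73. The differences were -0.89 (SE 0.24, unadjusted p 0.00220) and 7.36 (SE 2.15, unadjusted p 0.00369), with the same adjusted p, and Prg4 ranged from 0.114 to 67.4 CPM among the P2H2WT libraries. A p that misses the threshold does not show that the effects were equal.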

How the data were processed

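The authors deposited raw counts of reads per gene, whole numbers for 49585 Ensembl identifiers, with 8 libraries of each line in a table of its own, per the file headers. Reads were counted with HTSeq on mm10, per the submitters' processing notes; aligner, annotation release and strandedness are not given in the sources used here. GENCODE M21 (GRCm38) names matched 49326 identifiers. Total counts were 24169451 to 28136068 in the 8 libraries compared, and all 6 pairs within each group differed by more than sampling noise.

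Genes were filtered with filterByExpr and tested with the quasi-likelihood test of edgeR 4.0.16 (TMM, robust glmQLFit, Benjamini-Hochberg over all genes tested, threshold 0.05) in R 4.3.3. CPM are relative to TMM-scaled totals of these 8 libraries. Tests of Egln1, Epas1 and Hif1a were exact permutations of log2(CPM + 1) with scipy 1.17.1. The difference of effects came from a fit of all 16 libraries. Alternatives were RLE and upper-quartile factors, other filters, DESeq2 1.42.0, the suffix as covariate or split, the 16-library fit and each library left out; leaving out P2KO replicates 6 and 9 together was chosen after seeing the data. On counts simulated for this comparison (13734 genes) the test called 37.5% of 48 genes changed by a log2 of 0.5, 62% of 50 at 1, 89.6% of 48 at 1.5 and 91.5% of 47 at 2, with 4 of 13402 unchanged genes called. Because 200 genes were changed at once and genes were drawn independently, these rates may exceed those in the real libraries.

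The comparison and its 38 lists were chosen with earlier results of these data known. Named genes were Egln1, Epas1 and Hif1a, all called genes (edgeR, or DESeq2), in each direction the 10 genes of smallest p without overlap and with a mean of at least 5 CPM, all glycolysis and oxygen-sensing genes and 2 genes of each other list; which of these the text describes was decided after their values were seen. Lists were described by counts and medians and not tested as sets; 1 further list of the design is not reported here.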

Additional observations from a re-analysis of the deposited data

Results flagged for a closer look

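In 322 groups of 4 libraries, over every gene taken by the naming rule and the sum of every list, 26 had 1 library far from the other 3, where chance flags about 1 in 20 groups, which is 16.1. Genes and sums share libraries, so these flags are not independent, and 22 of the 26 lie in 3 libraries. No cause was tested.

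P2KO replicate 6 was the highest of its group in Hif1a (93.8 CPM), Hk2 (178 CPM) and Ppp1r3b (70.6 CPM), and in the sums of oxygen sensors (427 CPM) and of inflammatory cytokines (678 CPM). It was the lowest in Aurka (136 CPM), Gata1 (119 CPM) and Lmna (137 CPM), and in the sums of glyoxylate enzymes (277 CPM), mitophagy genes (1160 CPM, rounded) and replication genes (7580 CPM, rounded).

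P2WT replicate 10 was the lowest of its group in P4ha1 (27.7 CPM). It was the highest in Il1r2 (88.0 CPM), Ppp1r3b (44.2 CPM) and Hk3 (430 CPM), and, with sums rounded to 3 digits, in fructose bisphosphate and glycogen genes (1490 CPM), integrins (6210 CPM), chemoattractant receptors (1650 CPM), specific granule genes (46000 CPM) and the BCL2 family (1090 CPM).

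P2KO replicate 9 was the highest of its group in Podxl (3.70 CPM) and Vwf (64.8 CPM). P2WT replicate 4 was the highest in Hif3a (3.38 CPM) and Car1 (335 CPM). P2WT replicate 7 was the lowest in Btg2 (252 CPM), and P2WT replicate 3 was the highest in the sum of bone and stroma genes (1370 CPM, rounded).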

How the results depend on the processing

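No paired analysis was possible because the groups share no replicate numbers. The count of 6 genes called, 6 higher and 0 lower, was 4 to 6 when single libraries were left out, all higher. DESeq2 called 23 (13 higher, 10 lower), the fit of all 16 libraries 10 (10 higher), the suffix m libraries 1 (1 higher) and the suffix f libraries 172 (100 higher, 72 lower), where 1 P2KO library is assumed to vary like the others. Before adjustment 480 genes had p under 0.05, or 813 with no filter. This number was 296 when P2WT replicate 7 was dropped and was 1702 when P2KO replicate 6 was. The difference between lines had 0 calls in every alternative run.

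Of 123 genes taken by the naming rule or added for the text, 45 turned direction in at least 1 alternative. Of the 67 whose log2 fold changes enter the text or its plots 16 did, and the causes were not tested. With single libraries left out (the library in parentheses) the values ranged for Pkm from -0.0244 (P2KO 6) to 0.32 (P2KO 9), for Slc16a3 from -0.0701 (P2KO 6) to 0.57 (P2WT 10), for Epas1 from -0.27 (P2KO 9) to 0.50 (P2KO 6), for Hk2 from -0.11 (P2KO 6) to 0.27 (P2KO 9). The same range ran for Pfkp from -0.0248 (P2KO 6) to 0.20 (P2KO 9), for Slc2a3 from -0.28 (P2KO 6) to 0.37 (P2WT 10), for Egln1 from -0.0504 (P2KO 6) to 0.0945 (P2KO 9), for Gpi1 from -0.15 (P2KO 6) to 0.11 (P2WT 10), for Hk3 from -0.25 (P2KO 6) to 0.13 (P2KO 9). Without P2KO replicates 6 and 9 together they were -0.15 (Epas1), -0.0626 (Hk2), -0.18 (Slc2a3), -0.00714 (Egln1) and -0.12 (Gpi1). Within suffix f they were -0.0552 (Slc2a1), -0.0869 (Gapdh), -0.11 (Pgk1), -0.37 (Pgam1), -0.37 (Pkm), -0.63 (Slc16a3), -0.41 (Hk2), -0.51 (Pfkp), -0.71 (Slc2a3), -0.23 (Egln1) and -0.39 (Gpi1). Within suffix m they were -0.025 (Pfkm), 0.0913 (Ldhb), -0.0489 (Slc16a1), -0.0962 (Epas1) and 0.24 (Hk3).

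In simulated counts with 4 libraries a group, 37.5% of genes changed by 0.5 on the log2 scale were called, so a missing call does not show equal levels.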
